A study of Mus musculus with 18 samples.

Results

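Voltage-gated ion channels of mouse small cell lung tumors were described across the 9 RNA-seq libraries, and the ATAC-seq peaks of the same genes across 9 further libraries. The 43 members were chosen by name as genes of voltage-gated sodium, calcium and potassium channels and of the HCN channels, and all 43 were found among the 46078 genes counted. The rule that chose them used no measured value, although earlier results of these data were known when it was set. They comprised 8 sodium channel subunits, 8 calcium channel alpha1 subunits, 7 auxiliary calcium channel subunits and 20 potassium and HCN subunits. Their peaks, taken from 5000 bp upstream of each gene to its end, numbered 456 of 111664.

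All mice carried floxed alleles of Rb1, Rbl1 and p53, which are lost in lung cells that receive Cre (TKO). Rbl1 is the name in the labels and in a list of strains in the methods of the study, which elsewhere names Rbl2. CARM1 knockout mice carried a floxed Carm1 as well, so that the cells also lose the arginine methyltransferase CARM1. NFIB mutant mice (TKO;NfibR388K) carried a change of 1 amino acid in the transcription factor NFIB, at the arginine that CARM1 methylates, made in the germ line and so present in all cells of the animal. Adenovirus with Cre was given into the trachea at 8 weeks of age and tumors were taken 28 weeks later, 3 mice of each genotype. By the methods of the study the cells were sorted for the tdTomato reporter, which Cre switches on in any lung cell that takes up the virus, whereas its results speak of tumor biopsies, and its ATAC-seq methods also name cell lines.

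Voltage-gated channels open when the membrane depolarizes. Sodium channel alpha subunits form the pore that starts an action potential, calcium channel alpha1 subunits form the pore that admits calcium and so couples excitation to secretion, and potassium channels return the membrane to rest. HCN channels open on hyperpolarization and pace repetitive firing. Small cell lung cancer is a neuroendocrine tumor whose cells can be electrically excitable, and many channel genes of neurons are kept silent in other cells by REST, a repressor that binds the RE1 sequence.

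Depth was 15848866 to 20915057 gene counts per RNA-seq library and 26917178 to 47653979 peak counts per ATAC-seq library. Levels are given as CPM, the counts of a library scaled to a common total by edgeR's TMM method, and 3 counts in 1 library, taken as the limit of detection for counting error alone, corresponded to 0.143 to 0.189 CPM in RNA-seq. Calls took an adjusted p below 0.1 together with a log2 fold change of 0.8 or more in size for genes, or 0.5 or more for peaks. Carm1 itself was at 97.7, 103 and 44.5 CPM in TKO, 63.4, 79.1 and 50.8 in CARM1 knockout and 100.4, 104 and 102 in NFIB mutant tumors. The counts of Carm1 thus overlapped between the genotypes, and whether the floxed part covers all of the gene is not given in the sources used here, so that they check the labels poorly. Nfib, which the mutation alters at 1 codon, was at 420.2, 579.9 and 571 CPM in TKO, 74.5, 216 and 87.2 in CARM1 knockout and 105, 83.3 and 91.4 in NFIB mutant tumors, lower in every mutant library than in every TKO library. Fibroblast markers (6 of 6 at a mean of at least 1 CPM in both mutants) summed to 11.1 to 63.4 CPM in TKO libraries, 14457 to 25795 CPM in CARM1 knockout and 9479 to 15915 CPM in NFIB mutant libraries. Neuroendocrine markers (12 genes) summed to 1687 to 3935 CPM in TKO and 33.5 to 51.3 CPM in NFIB mutant libraries. In CARM1 knockout they summed to 59.3 and 189 CPM in replicates 1 and 2 but to 1820 CPM in replicate 3, with the secretory marker Chga at 211 CPM there. The same library had the highest fibroblast sum of all (25795 CPM) and the highest leukocyte (704 CPM) and muscle (1659 CPM) sums. Muscle markers summed to 5.86 to 11.1 CPM in TKO, 385 to 1659 CPM in CARM1 knockout and 101 to 433 CPM in NFIB mutant libraries, leukocyte markers to 3.24 to 17.01, 40.4 to 704 and 27.6 to 491 CPM, and Schwann cell and neuron markers to 135 to 506, 0.875 to 25.8 and 0.986 to 2.55 CPM. Cd3e of T cells and Cldn5 of endothelium were at 0 in every library. Lung epithelium markers spread from 3.49 to 2806 CPM over the mutant libraries and from 283 to 635 CPM in TKO, and endothelium markers did not exceed 73.9 CPM. CARM1 knockout replicate 3 thus stands apart from the other 5 mutant libraries. Counts of called members are given with and without it. Fold changes, medians and counts of peaks include it unless said otherwise. The labelled neuroendocrine cell type thus had its markers at these levels in the TKO libraries and in that library, while in the NFIB mutant 2 of the 12 markers had a mean of at least 1 CPM. In libraries of bulk cells, fewer cells of a type and less RNA per cell cannot be told apart, and the part of this shift in markers in the results below was not tested.

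TKO tumors expressed most of the channel genes. Between 36 and 38 of the 43 members had over 3 counts in each TKO library, against 18 to 23 in the NFIB mutant libraries, 20 and 23 in CARM1 knockout replicates 1 and 2, and 34 in CARM1 knockout replicate 3. All members together took 1158 to 1243 CPM in TKO, 234 to 566 CPM in NFIB mutant and 413, 355 and 839 CPM in CARM1 knockout tumors. Per kb of exon, the scale on which genes can be compared, Hcn2 was the highest member in TKO with 23.7 CPM per kb, followed by Kcnh2 with 12.9, Cacnb3 with 11.3 and Cacna1a with 11.2. In the mutants together Cacnb3 led with 31.3 CPM per kb, followed by Cacna2d1 with 5.68 and Cacna1c with 4.01.

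**Figure D1:**
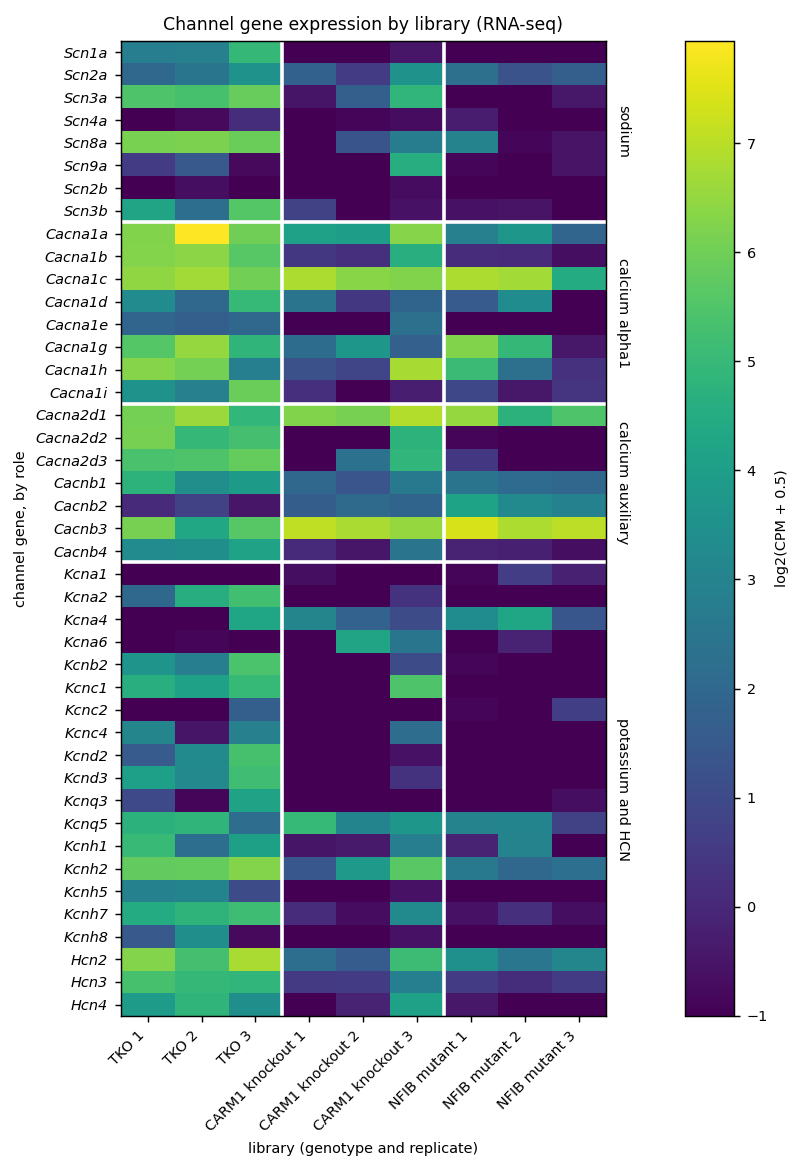
Expression of the 43 channel genes (rows, grouped by role) in the 9 RNA-seq libraries (columns), as log2(CPM + 0.5). Most rows are bright in the 3 TKO columns and dark in NFIB mutant columns, CARM1 knockout replicate 3 lies between them, and Cacna1c, Cacna2d1 and Cacnb3 are bright in nearly all columns.

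The filter on low counts kept 36 members for the test. In NFIB mutant tumors 24 of the 36 were lower and 2 were higher, while 23.5% of all 15514 genes tested were lower and 22.3% higher. In CARM1 knockout tumors 13 were lower and 2 were higher, with 18.3% of all genes lower and 20.5% higher. The median log2 fold change of the tested members was -5.15 in NFIB mutant tumors, or -4.73 with the 8 tested members at 0 counts in that genotype set at their bounds, and -2.25 in CARM1 knockout tumors. These 8 passed the filter through libraries of the other genotypes and could not come out higher in NFIB mutant tumors. Other members called lower there also passed through the other genotypes. Among them, Cacna2d2 and Kcnb2 held 1 count each over the 3 NFIB mutant libraries, Scn3a and Hcn4 4 and Scn3b 6. In CARM1 knockout tumors Kcnd2 and Kcnh5, called lower, held 3 counts each and Scn1a 4. All of these are part of the counts and medians given here, and a filter that needs counts in every library is given in the closing section. Over all genes tested the medians were -0.05 and -0.03. Scaling by library totals alone moved these medians to -0.37 and -0.30 and the shares of all genes to 31.04% lower and 17.3% higher in NFIB mutant and 24.9% lower and 16.2% higher in CARM1 knockout tumors, with 25 and 15 members lower and 2 higher in each. Both comparisons use the same 3 TKO libraries. The 13 members lower in CARM1 knockout tumors were Scn1a, Scn8a, Scn3b, Cacna1i, Cacnb1, Cacnb4, Kcna2, Kcnb2, Kcnd2, Kcnd3, Kcnh5, Hcn2 and Hcn3. The list for NFIB mutant tumors held these and 11 more, which had not passed the thresholds in CARM1 knockout tumors: Scn3a, Cacna1a, Cacna1b, Cacna1e, Cacna2d2, Cacna2d3, Kcnc1, Kcnc4, Kcnh2, Kcnh7 and Hcn4. Whether these 11 differed between the mutants is given with the test between them. The 7 members that were not tested were Scn4a, Scn2b, Kcna1, Kcna6, Kcnc2, Kcnq3 and Kcnh8.

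The count of lower members in CARM1 knockout tumors depended on single libraries. Without replicate 1 of that genotype it was 8, and the share of all genes that were lower fell too, from 18.3% to 12.02%. Without replicate 3 of that genotype, 27 of 39 tested members were lower, against 19.8% of all genes, and the same 2 were higher. The 27 were the same 13, a further 13 that were not called with all libraries, and Kcnq3. The further 13 were Scn3a, Scn9a, Cacna1a, Cacna1b, Cacna1e, Cacna1h, Cacna2d2, Kcnc1, Kcnc4, Kcnh1, Kcnh2, Kcnh7 and Hcn4. Of the 36 members tested with all libraries, replicate 3 was the highest of the 6 mutant libraries for 25 (69.4%, against 21% of all genes tested), and it was at or above the lowest TKO library for 15 (41.7%, against 65% of all genes). Among these were Kcnc1, which opens at strongly depolarized potentials in fast-firing neurons, and Cacna1h, a low-threshold T-type calcium channel. Kcnc1 was at 43.8 CPM in that library, 0 in the other 5 mutant libraries and 24.6, 17.01 and 31.3 CPM in TKO. Even so, 19 members, among them Scn1a, Scn8a, Cacna1b, Kcnd2, Kcnd3, Hcn2 and Hcn3, were below every TKO library in all 6 mutant libraries, that library included, as were 23.3% of all genes tested.

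**Figure D2:**
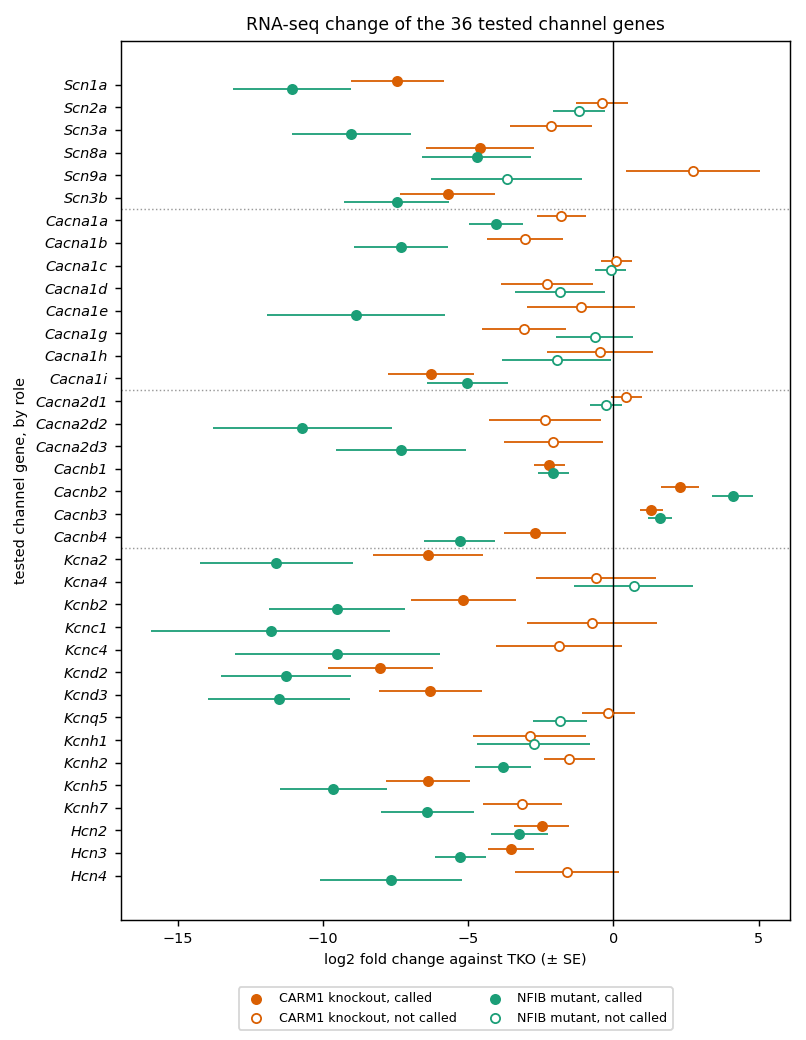
Log2 fold change against TKO (x axis, ± SE) of the 36 tested channel genes by role, for CARM1 knockout (orange) and NFIB mutant (green) tumors, with filled circles for calls. Of the tested genes 24 are called lower in NFIB mutant and 13 in CARM1 knockout tumors, and only Cacnb2 and Cacnb3 are called higher in these 2 comparisons; fitted values of genes at 0 counts in a genotype depend on the prior count of the fit.

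Of the 6 tested sodium channel subunits, 4 were lower in NFIB mutant and 3 in CARM1 knockout tumors (66.7% and 50%), and none was called higher. Of all genes tested, 23.5% and 18.3% were lower. Scn8a encodes the pore subunit of the axon initial segment and nodes and was the highest of them in TKO, with 4.29 CPM per kb. It was at 70.4, 72.5 and 59.95 CPM in TKO, 0, 1.98 and 6.35 in CARM1 knockout and 7.48, 0.0616 and 0.191 in NFIB mutant tumors. Every mutant library lay below every TKO library, with log2 fold changes of -4.60 ± 1.87 (SE, adjusted p = 0.089) in CARM1 knockout and -4.71 ± 1.88 (SE, adjusted p = 0.074) in NFIB mutant tumors. Scn3b, an auxiliary beta subunit that modulates gating and trafficking, was at 18.1, 4.16 and 46.8 CPM in TKO, 1.15, 0 and 0.169 in CARM1 knockout and 0.182, 0.185 and 0 in NFIB mutant tumors. The TKO libraries themselves spread over 11.3-fold for Scn3b, and all mutant libraries were still below the lowest of them. It fell in both genotypes, with adjusted p = 0.031 in CARM1 knockout and adjusted p = 0.014 in NFIB mutant tumors.

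Scn3a, the pore subunit of embryonic neurons, was at 43.5, 39.8 and 57.8 CPM in TKO, 0.203, 2.80 and 28.9 in CARM1 knockout and 0, 0 and 0.254 in NFIB mutant tumors. It fell in NFIB mutant tumors with adjusted p = 0.011. In CARM1 knockout tumors replicate 3 stood near the TKO range and the other replicates near 0, and the log2 fold change was -2.14 ± 1.42 (SE, adjusted p = 0.26). Scn1a, the pore subunit of fast-spiking inhibitory neurons, was at 6.63, 6.95 and 30.4 CPM in TKO, 0, 0 and 0.225 in CARM1 knockout and 0, 0 and 0 in NFIB mutant tumors. In NFIB mutant tumors all 3 libraries held 0 counts. Against a floor of 3 counts in each library this is at least 78.9-fold below the TKO mean. Bounds of this kind, here and below, use the mean of the TKO libraries and would be smaller for a low TKO library. Scn1a also fell in CARM1 knockout tumors (adjusted p = 0.018).

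The remaining sodium pore genes were not called. Scn2a, a pore subunit of excitatory neurons, was at 3.60, 5.12 and 11.6 CPM in TKO, 2.91, 0.991 and 11.6 in CARM1 knockout and 4.38, 1.91 and 2.73 in NFIB mutant tumors. The genotypes overlapped, and neither log2 fold change passed the test, at -0.39 ± 0.88 (SE, adjusted p = 0.75) and -1.17 ± 0.89 (SE, adjusted p = 0.31). Scn9a, the pore subunit of nociceptors and sympathetic neurons, was at 1.01, 2.32 and 0.0886 CPM in TKO, 0, 0 and 22.98 in CARM1 knockout and 0.0608, 0 and 0.191 in NFIB mutant tumors. Its highest value of all was in CARM1 knockout replicate 3, and no call was made with all libraries. Scn4a of skeletal muscle and the beta subunit Scn2b did not exceed 0.620 CPM in any library.

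Among the 8 calcium channel pore subunits, 4 were lower in NFIB mutant tumors (Cacna1a, Cacna1b, Cacna1e and Cacna1i) and 1, Cacna1i, in CARM1 knockout tumors. The NFIB mutant count was 50%, against 23.5% of all genes. The CARM1 knockout count was 12.5%, under the 18.3% of all genes lower there. Cacna1a and Cacna1b encode the P/Q-type and N-type channels that trigger release at nerve terminals. Cacna1a was at 74.4, 245 and 63.9 CPM in TKO, 16.7, 15.1 and 78.3 in CARM1 knockout and 6.99, 12.8 and 3.30 in NFIB mutant tumors. It fell in NFIB mutant tumors, with a log2 fold change of -4.05 ± 0.94 (SE, adjusted p = 0.012), whereas CARM1 knockout tumors overlapped TKO through replicate 3, at -1.80 ± 0.85 (SE, adjusted p = 0.13). Cacna1b was at 77.7, 83.7 and 48.3 CPM in TKO, 0.881, 0.642 and 23.9 in CARM1 knockout and 0.608, 0.555 and 0.127 in NFIB mutant tumors. All 6 mutant libraries were below TKO, with log2 fold changes of -7.32 ± 1.62 (SE, adjusted p = 0.01) in NFIB mutant and -3.04 ± 1.30 (SE, adjusted p = 0.101) in CARM1 knockout tumors, the latter just outside the threshold. The R-type Cacna1e was low in TKO, at 3.27, 2.76 and 3.50 CPM, held 0 counts in the NFIB mutant libraries (at least 17.1-fold lower) and was at 4.38 CPM in CARM1 knockout replicate 3 alone of its genotype.

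The L-type pore subunit Cacna1c (ENSMUSG00000051331, chromosome 6, 118587240 to 119196418), which carries the calcium current of cardiac and smooth muscle and is also used by neurons and endocrine cells, was the pore gene whose level stayed nearest to TKO. It was at 86.8, 103 and 64.8 CPM in TKO, 115, 81.9 and 75.002 in CARM1 knockout and 113, 104 and 21.9 in NFIB mutant tumors. The groups overlapped, NFIB mutant replicate 3 was the lowest library, and the log2 fold changes were 0.10 ± 0.53 (SE, adjusted p = 0.9) and -0.09 ± 0.53 (SE, adjusted p = 0.9). With an SE of 0.53 on the log2 scale, an equal level is not shown. Cacna1c made up 30.7 to 68.5% of the alpha1 transcripts per kb in NFIB mutant libraries and 14.4 to 67.6% in CARM1 knockout, the lowest share being that of replicate 3, against 9.38 to 12.3% in TKO. The other L-type member, Cacna1d, was at 9.46, 3.50 and 31.1 CPM in TKO, 4.95, 0.875 and 3.20 in CARM1 knockout and 2.49, 9.68 and 0 in NFIB mutant tumors and was not called.

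The T-type pore subunits, which open near the resting potential, were Cacna1g, Cacna1h and Cacna1i. Cacna1i fell in both mutants, from 11.6, 6.998 and 60.8 CPM in TKO to at most 1.40 CPM in any mutant library, with log2 fold changes of -6.28 ± 1.48 (SE, adjusted p = 0.016) and -5.03 ± 1.38 (SE, adjusted p = 0.022). Cacna1g was at 47.2, 91.8 and 28.5 CPM in TKO, 3.93, 12.8 and 2.87 in CARM1 knockout and 76.1, 30.8 and 0.254 in NFIB mutant tumors. The NFIB mutant libraries spanned the range from above the TKO median to near 0, and Cacna1g was not called in either mutant. Cacna1h was at 79.3, 66.4 and 6.69 CPM in TKO, 1.83, 1.34 and 107 in CARM1 knockout and 33.98, 4.44 and 0.699 in NFIB mutant tumors and was not called either. Its highest library of all was CARM1 knockout replicate 3, and 1 TKO library was as low as 6.69 CPM.

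The auxiliary calcium subunits held both members that rose in the mutants. Beta subunits bind the alpha1 pore inside the cell and bring it to the membrane. Cacnb3 (ENSMUSG00000003352, chromosome 15, 98630840 to 98644529) was at 67.6, 19.99 and 48.7 CPM in TKO, 135, 111 and 91.7 in CARM1 knockout and 169, 115 and 130.5 in NFIB mutant tumors. Every mutant library was above every TKO library, and the gene rose by 1.31 ± 0.41 (SE, adjusted p = 0.04) on the log2 scale in CARM1 knockout and by 1.61 ± 0.41 (SE, adjusted p = 0.017) in NFIB mutant tumors. Cacnb2 (ENSMUSG00000057914, chromosome 2, 14603088 to 14987908), the main beta subunit of the heart, was at 0.577, 1.14 and 0.222 CPM in TKO, 2.64, 3.79 and 3.15 in CARM1 knockout and 17.6, 8.88 and 7.05 in NFIB mutant tumors. Here too the groups did not overlap, and the log2 fold changes were 2.30 ± 0.66 (SE, adjusted p = 0.031) in CARM1 knockout and 4.10 ± 0.71 (SE, adjusted p = 0.0038) in NFIB mutant tumors. Cacnb2 and Cacna1c are also channel genes of muscle, and the part of the muscle markers in their levels was not tested. The NFIB mutant libraries were all above the CARM1 knockout libraries for Cacnb2, but the difference between the mutants did not pass the test, at -1.81 ± 0.65 (SE, adjusted p = 0.53).

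The other beta subunits fell. Cacnb1, the beta subunit of skeletal muscle that is also made in brain, was at 26.7, 10.2 and 14.2 CPM in TKO, 3.46, 2.04 and 5.56 in CARM1 knockout and 4.92, 3.88 and 3.37 in NFIB mutant tumors, with log2 fold changes of -2.21 ± 0.53 (SE, adjusted p = 0.016) and -2.07 ± 0.52 (SE, adjusted p = 0.016). Cacnb4, a beta subunit of neurons, was at 9.37, 10.5 and 17.2 CPM in TKO, 0.542, 0.233 and 4.89 in CARM1 knockout and 0.426, 0.370 and 0.127 in NFIB mutant tumors, with log2 fold changes of -2.70 ± 1.08 (SE, adjusted p = 0.083) and -5.29 ± 1.23 (SE, adjusted p = 0.012). Among beta transcripts per kb, Cacnb3 took 58.7 to 70.7% in TKO, 91.9 to 97.3% in CARM1 knockout and 94.5 to 96.2% in NFIB mutant libraries. Cacnb1 took 18.2 to 26.6% in TKO and at most 4.93% in any mutant library.

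The alpha2delta subunits, which sit outside the membrane and raise the number of channels at the surface, were 3 genes at like levels in TKO and mostly 1 in the mutants. In TKO, Cacna2d1, Cacna2d2 and Cacna2d3 were at 5.17, 5.79 and 5.37 CPM per kb. Cacna2d1 was at 67.2, 95.9 and 29.5 CPM in TKO, 75.6, 68.5 and 118 in CARM1 knockout and 90.5, 26.1 and 43.9 in NFIB mutant tumors and was not called, with log2 fold changes of 0.45 ± 0.54 (SE, adjusted p = 0.54) and -0.26 ± 0.54 (SE, adjusted p = 0.71). Cacna2d2 was at 69.04, 30.2 and 38.7 CPM in TKO, 0, 0 and 26.9 in CARM1 knockout and 0.0608, 0 and 0 in NFIB mutant tumors. It was at 1 count over the 3 NFIB mutant libraries and fell there (adjusted p = 0.026), while CARM1 knockout replicate 3 still held 26.9 CPM, below the lowest TKO library. Cacna2d3 was at 40.9, 43.8 and 55.7 CPM in TKO, 0, 4.67 and 28.8 in CARM1 knockout and 0.851, 0 and 0 in NFIB mutant tumors, fell in NFIB mutant tumors, with a log2 fold change of -7.32 ± 2.24 (SE, adjusted p = 0.032), and was highest among mutant libraries in CARM1 knockout replicate 3. Cacna2d1 made up 98.6 to 100% of the alpha2delta transcripts per kb in NFIB mutant libraries, 58.8 to 100% in CARM1 knockout and 17.4 to 46.7% in TKO.

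**Figure D3:**
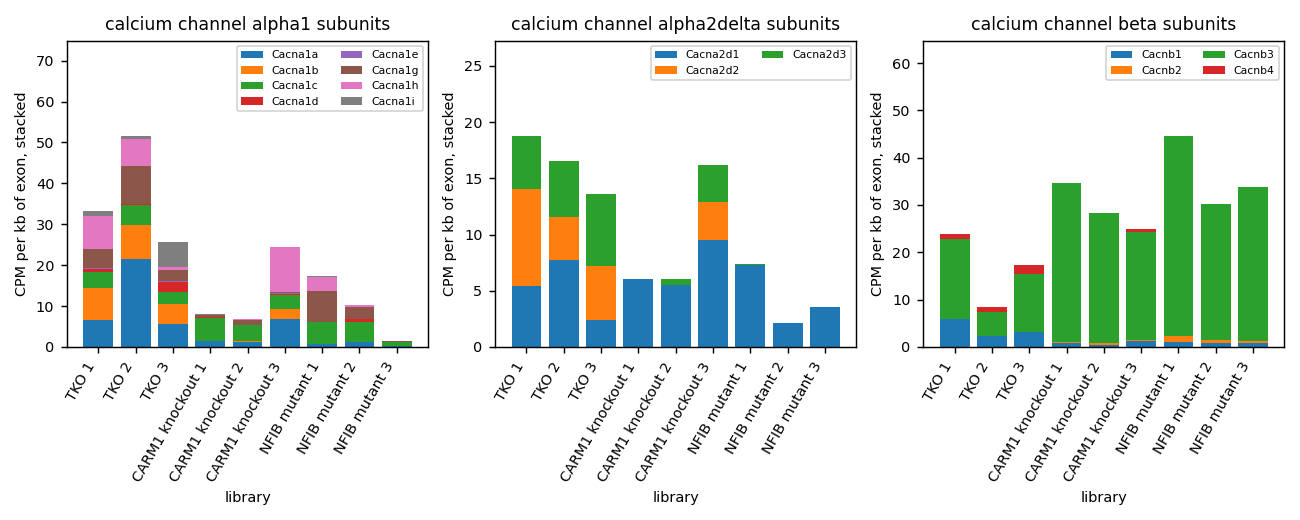
CPM per kb of exon of the calcium channel alpha1, alpha2delta and beta subunits, stacked by gene, in each of the 9 RNA-seq libraries. The alpha2delta bars hold 3 colors in TKO and in CARM1 knockout replicate 3 and almost only Cacna2d1 in the other mutant libraries, and at least 91.9% of each beta bar of the mutants is Cacnb3.

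Of the 20 potassium and HCN subunits 15 were tested, of which 12 were lower in NFIB mutant and 7 in CARM1 knockout tumors (80% and 46.7%). None was called higher. Of all genes tested, 23.5% and 18.3% were lower. The A-type channels Kcnd2 and Kcnd3, which delay the return to threshold between spikes, were among the genes with the least transcript left. Kcnd2 was at 2.45, 9.01 and 39.7 CPM in TKO, 0, 0 and 0.169 in CARM1 knockout and 0, 0 and 0 in NFIB mutant tumors. Kcnd3 was at 15.8, 8.79 and 35.8 CPM in TKO, 0, 0 and 0.730 in CARM1 knockout and 0, 0 and 0 in NFIB mutant tumors. In NFIB mutant tumors both held 0 counts in all libraries, at least 91.6-fold and 108-fold below their TKO means. Both also fell in CARM1 knockout tumors (adjusted p = 0.02 and adjusted p = 0.039), replicate 3 included. The delayed rectifiers Kcna2 and Kcnb2 took the same course. Kcna2, of axons, was at 3.41, 23.1 and 37.4 CPM in TKO and 0 in 5 of 6 mutant libraries (in the NFIB mutant at least 115-fold below the TKO mean). Kcnb2 was at 11.9, 6.56 and 41.5 CPM in TKO. It was under 0.1 CPM in all mutant libraries except CARM1 knockout replicate 3, with 1.63 CPM.

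The potassium channels of the Kv3 class differed between libraries of 1 genotype. Kcnc1 held 0 counts in NFIB mutant tumors, at least 131-fold below the TKO mean, and its high value in CARM1 knockout replicate 3 has been given above. Kcnc4 was at 7.78, 0.219 and 6.96 CPM in TKO, 0, 0 and 4.05 in CARM1 knockout and 0, 0 and 0 in NFIB mutant tumors. In the NFIB mutant this is at least 26.8-fold below the TKO mean, but TKO replicate 2 was itself near the limit of detection. Kcnc2 was over 3 counts in TKO replicate 3 and NFIB mutant replicate 3 and nowhere else, at 2.79 and 1.08 CPM.

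In the ether-a-go-go family, Kcnh2, which carries the rapid repolarizing current of the heart and sets excitability in endocrine cells, was at 54.7, 56.03 and 77.2 CPM in TKO, 2.17, 13.4 and 49.8 in CARM1 knockout and 5.65, 3.45 and 4.32 in NFIB mutant tumors. It fell in NFIB mutant tumors, with a log2 fold change of -3.80 ± 0.96 (SE, adjusted p = 0.016), and was not called in CARM1 knockout tumors, at -1.52 ± 0.87 (SE, adjusted p = 0.2), where every library was nevertheless below every TKO library. Kcnh5 was lower in both mutants and Kcnh7 in the NFIB mutant. Kcnh5 was at 7.16, 7.70 and 1.55 CPM in TKO and at most 0.169 CPM in any mutant library, and Kcnh7 was at 22.1, 27.9 and 35.5 CPM in TKO, 0.610, 0.117 and 8.99 in CARM1 knockout and 0.182, 0.678 and 0.127 in NFIB mutant tumors. Kcnh1 was at 32.4, 4.16 and 16.5 CPM in TKO, 0.203, 0.292 and 6.63 in CARM1 knockout and 0.426, 7.46 and 0 in NFIB mutant tumors and was not called. Kcnh8, not tested, was at 2.35, 10.4 and 0.0886 CPM in TKO and held 3 counts in all mutant libraries together.

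A few potassium genes were seen in mutant libraries at the level of TKO or above it. Kcna4, an A-type channel, was at 0, 0 and 18.97 CPM in TKO, 7.80, 3.03 and 1.63 in CARM1 knockout and 9.73, 18.9 and 2.10 in NFIB mutant tumors. It was at 0 in 2 TKO libraries and at 1.63 to 18.9 CPM in all 6 mutant libraries, while the third TKO library was as high as the highest mutant, and no call was made. Kcna6, not tested, was at 18.02 CPM in CARM1 knockout replicate 2 and 5.11 CPM in replicate 3, and at most 0.432 CPM elsewhere. Kcnq5, an M-current subunit that dampens repetitive firing, was at 25.99, 28.6 and 4.08 CPM in TKO, 31.3, 7.70 and 12.8 in CARM1 knockout and 7.48, 7.77 and 1.21 in NFIB mutant tumors, with overlap and no call, while its partner Kcnq3 was at 1.44, 0.0437 and 17.2 CPM in TKO and at most 0.127 CPM in any mutant library.

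Hcn2, a pacemaker channel of heart and brain, had the highest level of all members in TKO per kb of exon. Hcn2 (ENSMUSG00000020331, chromosome 10, 79716634 to 79736108) was at 77.6, 39.2 and 109.9 CPM in TKO, 4.14, 2.51 and 34.05 in CARM1 knockout and 10.6, 5.24 and 8.13 in NFIB mutant tumors. All mutant libraries were below TKO, the highest being CARM1 knockout replicate 3, and the log2 fold changes were -2.48 ± 0.96 (SE, adjusted p = 0.077) and -3.24 ± 0.99 (SE, adjusted p = 0.032). Hcn3 (ENSMUSG00000028051, chromosome 3, 89146074 to 89160196) was at 39.8, 30.7 and 28.7 CPM in TKO, 0.949, 0.991 and 6.69 in CARM1 knockout and 0.973, 0.616 and 0.953 in NFIB mutant tumors. It fell in both, with log2 fold changes of -3.52 ± 0.80 (SE, adjusted p = 0.013) in CARM1 knockout and -5.28 ± 0.87 (SE, adjusted p = 0.0033) in NFIB mutant tumors. Hcn4, the main pacemaker channel of the sinus node, was at 14.6, 28.4 and 10.4 CPM in TKO, 0, 0.408 and 17.02 in CARM1 knockout and 0.243, 0 and 0 in NFIB mutant tumors and was lower in NFIB mutant tumors, with a log2 fold change of -7.65 ± 2.44 (SE, adjusted p = 0.037).

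TKO tumors also differed among themselves. Members with high values in TKO replicate 3 and low values in replicates 1 and 2 included Scn1a, Cacna1i, Kcnd2, Kcna4 and Kcnq3, whereas Cacna1h, Kcnq5 and Kcnh8 were lowest in replicate 3. For 22 of the 35 members with a start-site peak and over 1 CPM in a TKO library, the TKO replicate number with the most RNA was also the one with the most ATAC-seq reads at the gene start (62.9%, against 52.9% of 12312 protein-coding genes by the same rule). For example, the Kcnq3 start-site peak was at 8.73, 1.92 and 28.2 CPM, the Kcna4 peak at 1.15, 0.402 and 13.8 CPM and the Kcnh8 peak at 29.01, 44.2 and 5.07 CPM in TKO replicates 1 to 3. By the study, both assays used the same biopsies, but no label ties the numbers together.

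Between the mutants, none of the 36 tested members passed the test in edgeR, nor did any gene at all (0% of all genes in either direction, smallest adjusted p = 0.115, 1414 genes with an unadjusted p under 0.05). DESeq2 called 6 of the 43 members between the mutants, with 5 of them higher in the CARM1 knockout and 1 higher in the NFIB mutant. Beside them stood 1.15% and 0.812% of all 27468 genes in that fit. DESeq2 was not run without CARM1 knockout replicate 3. The median log2 fold change of CARM1 knockout against NFIB mutant over the members was 2.27, against 0.01 over all genes tested, and CARM1 knockout replicate 3 was the highest of the 6 mutant libraries for 25 of the 36.

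Channel genes outside the 43 were counted by family in the same fit. Beside the counts here and in the next paragraph stand the shares of all genes tested. These were 23.5% lower and 22.3% higher in NFIB mutant and 18.3% lower and 20.5% higher in CARM1 knockout tumors. Of 15 tested further potassium and HCN pore genes, 10 were lower and 2 higher in the NFIB mutant, and 5 were lower and 1 higher in CARM1 knockout tumors. Kcnd1, the third A-type pore of the Kcnd family, rose in both, from 4.95, 3.41 and 5.32 CPM in TKO to 24.3, 11.7 and 21.2 CPM (adjusted p = 0.0042) and 31.3, 22.9 and 30.7 CPM (adjusted p = 0.0015). Of 6 tested other calcium subunits, 5 were lower in NFIB mutant and 2 in CARM1 knockout tumors, with Cacng7 of the gamma family at 105, 103 and 116 CPM in TKO, 29.1, 18.7 and 33.3 in CARM1 knockout and 19.03, 3.45 and 16.5 in NFIB mutant tumors.

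Of 11 tested auxiliary potassium subunits, 6 were lower and 2 higher in NFIB mutant and 4 were lower and 1 higher in CARM1 knockout tumors. Kcne4, a subunit that inhibits several potassium pores, rose from 0.192, 0.350 and 0.753 CPM in TKO to 42.2, 41.7 and 3.48 CPM in CARM1 knockout and 74.7, 52.95 and 13.7 CPM in NFIB mutant tumors. Of 6 tested calcium-activated potassium channels, 4 were lower and 1 higher in NFIB mutant and 3 were lower and 1 higher in CARM1 knockout tumors, and the 1 that rose was Kcnn4, the channel of lymphocytes, epithelia and fibroblasts, at 1.01, 0.569 and 0.177 CPM in TKO, 11.8, 11.02 and 10.8 in CARM1 knockout and 12.9, 59.3 and 12.8 in NFIB mutant tumors. Of 14 tested potassium channels without a voltage sensor, the NFIB mutant had 3 higher and 4 lower and the CARM1 knockout 2 higher and 1 lower, with a median log2 fold change of 0.09 and 0.05. These counts were near or under the shares of all genes. Of 6 channel anchors and fibroblast growth factor homologous factors, 3 were lower in NFIB mutant and 1 in CARM1 knockout tumors, Ank2 in both. The 1 of 6 in CARM1 knockout tumors was near the 18.3% of all genes lower there.

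The repressor of neuronal genes, Rest, went the other way from most members. It was at 4.18, 6.69 and 5.63 CPM in TKO, 60.1, 60.5 and 50.1 in CARM1 knockout and 57.5, 63.9 and 47.3 in NFIB mutant tumors. Every mutant library was above every TKO library, CARM1 knockout replicate 3 included, and the log2 fold changes were 3.37 ± 0.24 (SE, adjusted p = 0.00033) and 3.35 ± 0.24 (SE, adjusted p = 0.00026). Of its corepressors, Rcor3 was lower in both mutants, Rcor2 was lower in CARM1 knockout tumors, and Rcor1 was not called. Whether the level of Rest bears on the channel genes was not tested.

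Accessibility at the channel genes changed in both directions. Of the 456 peaks 453 were tested. In CARM1 knockout tumors 255 were lower and 114 higher (56.3% and 25.2%), with 32.4% of all 111116 tested peaks lower and 38.7% higher. In NFIB mutant tumors 261 were lower and 106 higher (57.6% and 23.4%), with 34% of all peaks lower and 39.3% higher. The medians over the member peaks were -1.73 and -1.93 on the log2 scale, against 0.22 in both comparisons over all peaks. With library totals alone the medians over all peaks were 0.79 in both, with 24.5% lower and 47.3% higher in CARM1 knockout and 26.3% lower and 47.4% higher in NFIB mutant tumors, and 223 and 240 member peaks were lower and 129 and 130 higher. Potassium and HCN genes had the largest share of lower peaks among the 4 roles, 97 of 143 in either mutant. Between the mutants 0 member peaks and 0% of all peaks passed the test (smallest adjusted p = 0.124, 6813 peaks with an unadjusted p under 0.05), and DESeq2 called 2 member peaks higher in CARM1 knockout tumors, of 456, a share near the 0.468% of all peaks in that fit.

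Peaks at gene starts were lower at most of these genes. For 36 members a peak overlapped the window of 1000 bp on either side of the gene start, and the peak with the most reads was taken for each. Of these, 28 were lower and 2 higher in CARM1 knockout tumors, and 27 were lower and 2 higher in NFIB mutant tumors. Among all 13916 tested peaks at starts of protein-coding genes, 36.1% were lower and 13.2% higher in CARM1 knockout tumors, and 41.6% were lower and 13.4% higher in NFIB mutant tumors. At 25 of the 36 start sites every mutant library was below every TKO library, and at 2, those of Cacnb2 and Cacnb3, every mutant library was above. Over 14611 protein-coding genes with such a peak the shares were 43.4% and 10.4%.

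The start site of Kcnh5 had the most reads in TKO among the potassium channels, at 65.5, 79.7 and 42.8 CPM in TKO, 1.42, 2.44 and 4.81 in CARM1 knockout and 3.11, 1.13 and 1.92 in NFIB mutant tumors. At this peak the log2 fold changes were -4.44 ± 0.50 (SE, adjusted p = 8.5e-05) and -4.94 ± 0.52 (SE, adjusted p = 4.9e-05). For Kcnd2 the values were 16.2, 25.1 and 22.7 CPM in TKO, 1.37, 0.787 and 2.35 in CARM1 knockout and 0.568, 0.265 and 1.16 in NFIB mutant tumors, and for Kcnb2 30.3, 26.5 and 58.6 CPM in TKO, 1.09, 0.903 and 5.80 in CARM1 knockout and 1.23, 1.01 and 1.001 in NFIB mutant tumors. All 3 start sites were below 6 CPM in every mutant library. The start site of Hcn2 was at 22.1, 18.7 and 24.7 CPM in TKO, 7.65, 7.99 and 11.8 in CARM1 knockout and 5.95, 7.15 and 7.58 in NFIB mutant tumors, and the start site of Kcnh2 at 49.9, 40.5 and 35.5 CPM in TKO, 9.61, 10.4 and 18.02 in CARM1 knockout and 14.02, 11.4 and 9.56 in NFIB mutant tumors. Scn8a was at 26.3, 32.4 and 33.04 CPM in TKO, 2.09, 4.47 and 6.14 in CARM1 knockout and 3.17, 2.89 and 2.04 in NFIB mutant tumors, and Cacna2d2 at 25.9, 17.99 and 23.2 CPM in TKO, 1.58, 2.61 and 4.21 in CARM1 knockout and 2.24, 2.43 and 2.002 in NFIB mutant tumors.

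The start sites of the beta subunits that rose were more open in the mutants. The Cacnb2 start-site peak was at 5.23, 5.47 and 2.28 CPM in TKO, 11.5, 12.9 and 15.6 in CARM1 knockout and 22.1, 14.7 and 19.6 in NFIB mutant tumors, with log2 fold changes of 1.62 ± 0.35 (SE, adjusted p = 0.0024) and 2.11 ± 0.35 (SE, adjusted p = 0.00056). The Cacnb3 peak was at 45.3, 30.5 and 31.5 CPM in TKO, 51.1, 51.4 and 49.2 in CARM1 knockout and 59.4, 54.7 and 55.4 in NFIB mutant tumors. It was called in NFIB mutant tumors, at 0.66 ± 0.16 (SE, adjusted p = 0.0048), and lay just under the fold threshold in CARM1 knockout tumors, at 0.50 ± 0.16 (SE, adjusted p = 0.02). Of the genes whose transcript was not called, Cacna1g was at 23.5, 16.2 and 16.2 CPM in TKO, 15.2, 17.2 and 12.5 in CARM1 knockout and 19.8, 13.7 and 12.3 in NFIB mutant tumors and was not called, and Cacna2d1 was at 37.7, 35.3 and 28.8 CPM in TKO, 22.6, 33.9 and 26.9 in CARM1 knockout and 25.8, 17.3 and 19.8 in NFIB mutant tumors, called lower in NFIB mutant but not in CARM1 knockout tumors, at -0.69 ± 0.21 (SE, adjusted p = 0.014) in the former.

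For 32 members both the transcript and a start-site peak were tested. In NFIB mutant tumors, 21 of the 23 with a lower transcript had a lower start-site peak, 2 (Cacnb1 and Cacna1a) had one that was not called, and the 2 with a higher transcript had a higher peak. The Cacnb1 peak was just under the fold threshold, at -0.48 ± 0.17 (SE, adjusted p = 0.028), with every mutant library below every TKO library. The Cacna1a peak, of 244 bp, had few reads, at 0.159, 0.556 and 0.380 CPM in TKO, and says little about the start of that gene. Of all genes with a lower transcript and a tested start-site peak, 76.9% had a lower peak. Another 4 of 7 (Kcnq5, Cacna2d1, Cacna1h and Kcnh1) had a lower peak with a transcript that was not called, against 42.1% over all genes. In CARM1 knockout tumors all 12 with a lower transcript had a lower start-site peak, against 70.1% over all genes, and 13 of 18 had a lower peak with a transcript that was not called, against 36.8%. Among these 13 was Kcnc1, whose peak was at 29.2, 22.3 and 38.4 CPM in TKO, 2.87, 4.22 and 10.6 in CARM1 knockout and 1.88, 1.49 and 3.06 in NFIB mutant tumors. In CARM1 knockout replicate 3, where the Kcnc1 transcript was above TKO, its start-site peak was thus the highest of the mutants and still below the lowest TKO library. Over the 36 start-site peaks that replicate was the highest mutant library for 20 (55.6%, against 22.6% over all protein-coding genes), and at or above the lowest TKO library for 8 (22.2%, against 43%).

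**Figure D4:**
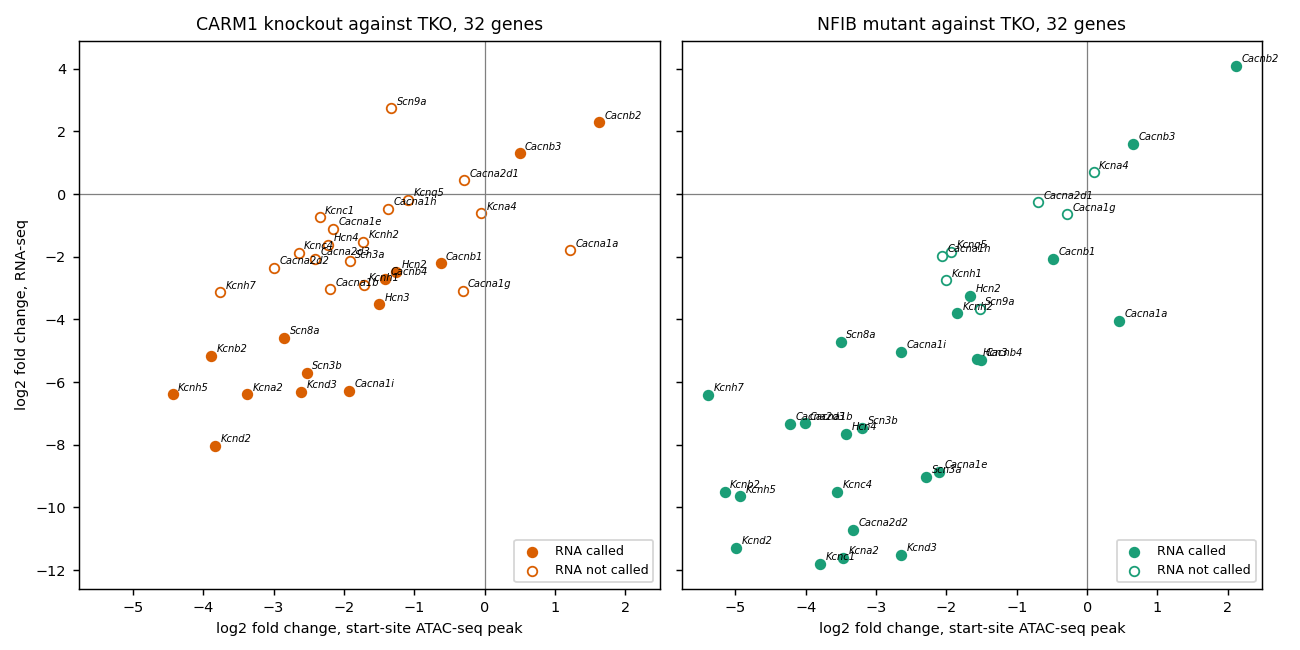
Log2 fold change against TKO of the start-site ATAC-seq peak (x axis) and of the transcript (y axis) for 32 channel genes, CARM1 knockout on the left and NFIB mutant on the right, filled where the transcript was called. Most genes lie in the lower left part of each plot, and Cacnb2 and Cacnb3 lie in the upper right; both plots share the TKO libraries.

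Start-site peaks of 3 members, Cacna1b, Hcn3 and Scn3b, held the core of the RE1 sequence, searched on both strands as CAGCACC, 2 bases of any kind, then GGACAG. They are printed because the letters of the core were the same in all 3, and a different core lay in an intron of Kcnh1. Sequences are from GRCm38, 5′ to 3′ on the strand named, with the core in capitals, and the Scn3b stretch is short because it lies in an untranslated region.
Cacna1b, intron, chr2:24762025-24762159, plus strand: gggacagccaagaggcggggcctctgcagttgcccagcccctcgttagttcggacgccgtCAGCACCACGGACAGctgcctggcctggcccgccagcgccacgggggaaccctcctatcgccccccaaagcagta
Hcn3, intron, chr3:89159279-89159413, plus strand: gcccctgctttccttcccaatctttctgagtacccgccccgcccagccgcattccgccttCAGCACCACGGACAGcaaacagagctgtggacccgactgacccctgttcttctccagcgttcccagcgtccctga
Scn3b, untranslated region of an exon, chr9:40269737-40269765, minus strand: cttggctCAGCACCACGGACAGtagcctt
Kcnh1, intron, chr1:192457662-192457796, minus strand: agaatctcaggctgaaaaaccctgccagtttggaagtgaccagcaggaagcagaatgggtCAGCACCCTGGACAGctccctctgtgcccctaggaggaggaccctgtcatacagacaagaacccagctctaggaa

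The cores lay 1060, 850 and 534 bp downstream of the annotated starts of Cacna1b, Hcn3 and Scn3b, and 266955 bp downstream of that of Kcnh1. The core was found in 3 of the 41 peaks at member starts (7.32%) and in 59 of 18720 peaks at starts of all genes (0.315%), and in 4 of 456 member peaks (0.877%) and 117 of 111664 peaks in all (0.105%). It was in 1 of the 426 middle 300-base windows of member peaks (0.235%, against 0.0194% of all), and in 0 of 48 RefSeq promoters of members, against 12 of 32851 in all (0.0365%). Peaks at member starts were longer, with a median of 2079 bp against 1613 bp for all peaks at gene starts. The 3 peaks closed in the mutants. That of Cacna1b was at 57.9, 52.7 and 33.9 CPM in TKO, 7.03, 7.51 and 17.1 in CARM1 knockout and 5.68, 1.47 and 1.83 in NFIB mutant tumors, that of Hcn3 at 30.7, 29.4 and 32.2 CPM in TKO, 8.60, 10.8 and 13.3 in CARM1 knockout and 9.27, 11.04 and 10.95 in NFIB mutant tumors and that of Scn3b at 26.2, 9.64 and 44.7 CPM in TKO, 4.47, 2.46 and 7.01 in CARM1 knockout and 2.63, 3.30 and 2.85 in NFIB mutant tumors. The Cacna1b peak had log2 fold changes of -2.19 ± 0.51 (SE, adjusted p = 0.0039) and -4.02 ± 0.56 (SE, adjusted p = 0.00021), the Hcn3 peak -1.49 ± 0.22 (SE, adjusted p = 0.00031) and -1.56 ± 0.22 (SE, adjusted p = 0.00021), and the Scn3b peak -2.53 ± 0.53 (SE, adjusted p = 0.0022) and -3.20 ± 0.55 (SE, adjusted p = 0.00067). The full NFI site, TTGGC, 5 bases of any kind, then GCCAA, was in none of the 456 member peaks and in 247 of 111664 peaks (0.221%), and in none of the 48 RefSeq promoters of members, on GRCm38. These letters not being in a window says nothing about binding by NFIB.

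Cacna1c had 68 peaks, 67 of them tested, the most of all members. In CARM1 knockout tumors 31 were higher and 23 lower (46.3% and 34.3%), against 38.7% and 32.4% of all peaks. In NFIB mutant tumors 30 were higher and 24 lower (44.8% and 35.8%), against 39.3% and 34%. Changes in both directions at Cacna1c were thus near the background, and the same shares of all peaks stand beside the counts of the other genes below. Cacna2d1, also not called in RNA-seq, had 19 peaks, with 9 higher and 7 lower in CARM1 knockout tumors, while in the NFIB mutant 9 were higher and 10 lower. Peaks and transcript calls did not run together in all genes. Among genes with a lower transcript in NFIB mutant tumors, all 17 peaks of Kcnd3, all 7 of Kcnb2 and all 5 of Hcn4 were lower in both mutants, as were 20 of 22 peaks of Cacna2d2, but of the 17 peaks of Cacnb4, 6 were higher and 5 lower in CARM1 knockout tumors. Of the genes that were not called, Cacna1d had 3 higher and 12 lower of 19 peaks in either mutant, and Kcnh1 had 3 higher and 17 lower of 23 in CARM1 knockout tumors. Of the 15 peaks of Cacnb2, 14 were higher in both. Of the 8 peaks of Kcnh8, 7 were higher in both mutants, while its start-site peak was lower and its transcript was at the limit of detection there.

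**Figure D5:**
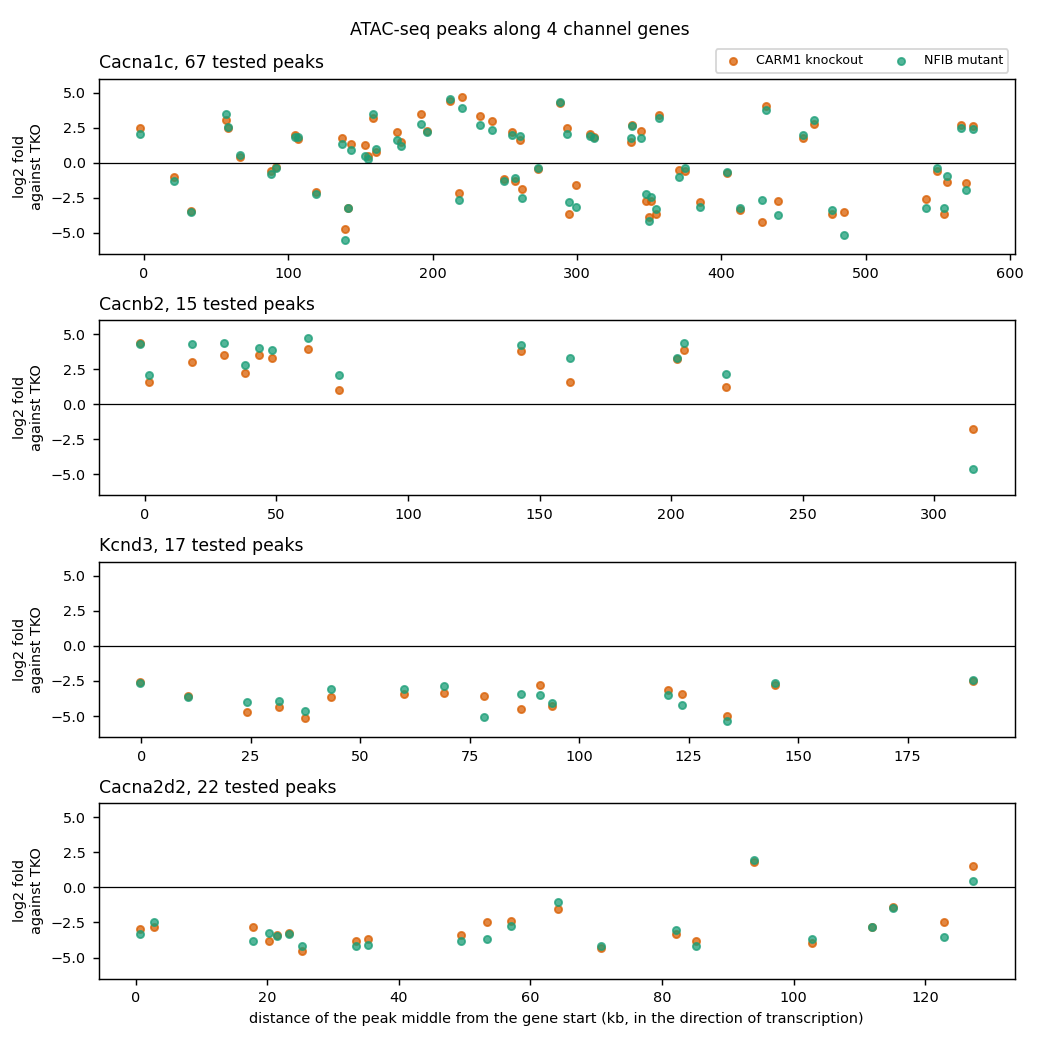
Log2 fold change against TKO of each tested ATAC-seq peak of Cacna1c, Cacnb2, Kcnd3 and Cacna2d2 (y axis), by the distance of its middle from the gene start in kb (x axis), for CARM1 knockout (orange) and NFIB mutant (green) tumors. Cacna1c peaks lie on both sides of 0 along the gene, all 17 Kcnd3 peaks lie below 0, and 14 of 15 Cacnb2 peaks lie above 0 in both mutants.

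Of the peaks that changed in the same direction in both mutants without overlap between libraries and with at least 3 log2 CPM in the higher genotype, 18 in 7 genes were higher (3.97% of member peaks, 8.29% of all peaks) and 69 in 26 genes were lower (15.2% and 10.2%). The peaks described next are the 4 largest in each direction with at most 1 a gene. The largest rise was at a peak in an intron of Cacna1c (chr6:118983534-118985447), 211928 bp into the gene, at 1.34, 1.70 and 1.27 CPM in TKO, 33.8, 32.2 and 26.1 in CARM1 knockout and 27.3, 41.02 and 34.8 in NFIB mutant tumors. There the log2 fold changes were 4.41 ± 0.25 (SE, adjusted p = 5.5e-06) and 4.58 ± 0.25 (SE, adjusted p = 4.1e-06). In the same gene, 139067 bp from its start, a peak over an exon (chr6:119056846-119057856) was nearly lost, at 16.7, 29.2 and 11.1 CPM in TKO, 0.620, 1.09 and 0.484 in CARM1 knockout and 0.538, 0.505 and 0.235 in NFIB mutant tumors. Next among the rises was a peak in an intron of Cacnb2 (chr2:14807361-14808971), at 0.606, 0.525 and 0.423 CPM in TKO, 9.43, 5.66 and 8.20 in CARM1 knockout and 13.7, 9.31 and 10.2 in NFIB mutant tumors. A peak in an intron of Cacna1i (chr15:80350085-80351358) rose as well, at 1.66, 1.24 and 0.972 CPM in TKO, 21.99, 11.8 and 17.2 in CARM1 knockout and 15.8, 8.85 and 20.1 in NFIB mutant tumors, although the transcript of Cacna1i fell, and so did a peak over an exon of Cacna1a (chr8:84615475-84616484), at 0.893, 1.11 and 0.465 CPM in TKO, 6.85, 7.37 and 11.2 in CARM1 knockout and 3.14, 2.02 and 11.6 in NFIB mutant tumors.

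The other 3 of the 4 largest losses were in introns. A Cacna2d1 peak (chr5:15985156-15986615), 51194 bp from the gene start, was at 46.6, 43.4 and 8.24 CPM in TKO, 0.801, 1.06 and 0.701 in CARM1 knockout and 1.02, 0.385 and 0.275 in NFIB mutant tumors, with log2 fold changes of -5.26 ± 0.71 (SE, adjusted p = 0.0002) and -5.90 ± 0.74 (SE, adjusted p = 0.00012). A Cacna2d3 peak (chr14:29242991-29244325) was at 12.8, 21.5 and 3.13 CPM in TKO, 0.310, 0.384 and 0.266 in CARM1 knockout and 0.478, 0.481 and 0.0392 in NFIB mutant tumors, and a Kcnd3 peak (chr3:105585704-105586518) at 5.80, 12.1 and 9.17 CPM in TKO, 0.310, 0.288 and 0.218 in CARM1 knockout and 0.329, 0.241 and 0.0981 in NFIB mutant tumors. In both of the first, TKO replicate 3 was the lowest TKO library and still above all mutant libraries.

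Short motifs differed between the member peaks that opened and those that closed, as they did over all peaks. The AP-1 site TGANTCA (N is any base), bound by Fos and Jun proteins, was searched in the middle 300 bases of each peak of at least that length. It was in 45 of 102 higher member peaks (44.1%) and 24 of 248 lower ones (9.68%) in CARM1 knockout tumors, and in 42 of 96 (43.8%) and 23 of 254 (9.06%) in NFIB mutant tumors. Over all peaks the shares were 40.2% of higher and 8.09% of lower peaks in CARM1 knockout and 40.3% and 8.04% in NFIB mutant tumors, so the member peaks were near the background. The shorter NFI site TTGGCA, on either strand, was in 14.7% of higher and 28.6% of lower member peaks in CARM1 knockout tumors and in 14.6% and 29.1% in NFIB mutant tumors, against 19.4% and 26.8%, and 19.4% and 26.4%, over all peaks. The E-box CAGCTG, a site of neural bHLH factors, was in 19.6% of higher and 25% of lower member peaks in CARM1 knockout tumors and in 17.7% and 25.2% in NFIB mutant tumors, against 19.3% and 27.96% over all peaks in CARM1 knockout and 19.5% and 27.7% in NFIB mutant tumors. A match is a description of the letters, not of a bound site.
Windows from the Cacna1c peak with the largest rise and from the Kcnd3 peak among the largest losses show such matches in capitals, on the plus strand of GRCm38. They were chosen for holding a match: the middles of the other 3 peaks described above as rises held no AP-1 site, and those of the Cacna2d1 and Cacna2d3 losses held no short NFI site.
Cacna1c, higher, AP-1 site, chr6:118984341-118984435: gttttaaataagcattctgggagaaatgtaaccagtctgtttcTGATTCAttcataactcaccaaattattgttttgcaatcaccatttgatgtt
Kcnd3, lower, short NFI site, chr3:105585962-105586053: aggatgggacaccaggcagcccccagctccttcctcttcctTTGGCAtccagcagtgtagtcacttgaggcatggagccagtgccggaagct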

How the data were processed

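RNA-seq and ATAC-seq were analysed in 3 libraries for each of TKO, CARM1 knockout and NFIB mutant tumors, grouped by the labels. The deposited values were raw counts made by the authors, per gene for RNA-seq (HTSeq, as the submitters' processing notes name it) and per peak for ATAC-seq (peaks by Genrich, counts by featureCounts 1.6.3), on GRCm38. Counts assigned to no gene, 3.65 to 12.2% of reads in the RNA-seq table, were left out. Depth was 15848866 to 20915057 counts in RNA-seq and 26917178 to 47653979 in ATAC-seq, and limits from counts cover counting error only.

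All 9 libraries of an assay were fitted together with edgeR 4.0.16 (R 4.3.3): TMM scaling, filterByExpr, a robust quasi-likelihood test and Benjamini-Hochberg adjustment over all genes or peaks tested. Calls took an adjusted p below 0.1 together with a log2 fold change of 0.8 or more in size for genes, or 0.5 or more for peaks, after the study's methods. Within an assay each library was taken as a separate mouse, since the study describes 3 independent mice of each genotype. By the study both assays used the same biopsies, so RNA-seq and ATAC-seq are not separate sets of animals. A comparison of 3 against 3 cannot give an exact permutation p below 0.1. CPM per kb divides CPM by exon length. Named members were, in each role, the 4 highest in TKO and the 3 highest in the mutants per kb, with any called higher, and other members given with values were picked after those values were seen. Extreme peaks were the 4 largest changes in each direction among peaks called alike in both mutants, without overlap, with at least 3 log2 CPM in the higher genotype and at most 1 a gene. The members, lists and motifs were chosen with earlier results of these data known. The fit was tested on simulated data. Alternatives were other scalings and filters, DESeq2 1.42.0, a replicate block, a stricter adjusted p, the groups compared alone and leaving out each library. Some results on genes outside the members are not reported here.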

Additional observations from a re-analysis of the deposited data

How the results depend on the processing

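Requiring at least 10 counts in every library left 11 members, of which 3 were lower and 1 higher in CARM1 knockout and 5 lower and 1 higher in NFIB mutant tumors, and 232 peaks, of which 115 were lower and 49 higher in CARM1 knockout and 117 lower and 49 higher in NFIB mutant tumors. This filter removes genes at 0 in a genotype. Over all features it gave 18.9% of genes lower and 18.6% higher in CARM1 knockout and 20.8% and 20.5% in NFIB mutant tumors, and 27.3% and 28.8% of peaks lower and 32.03% and 33.3% higher. Between the mutants, the DESeq2 Wald test called 5 of the 43 members higher and 1 lower in the CARM1 knockout, beside 1.15% and 0.812% of all genes. It called 2 member peaks higher, beside 0.468% of all peaks. Leaving out 1 library at a time gave 8 to 27 members lower and 2 to 4 higher in CARM1 knockout, 20 to 27 lower and 2 to 3 higher in NFIB mutant tumors, and 0 between the mutants. The 8 came without CARM1 knockout replicate 1 (12.02% of all genes lower) and the 27 without CARM1 knockout replicate 3 (19.8% lower). The 4 came without TKO replicate 3 (21.4% of all genes higher). For peaks the ranges were 238 to 261 lower and 101 to 117 higher in CARM1 knockout and 252 to 267 lower and 97 to 110 higher in NFIB mutant tumors.

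Members that were not called changed sign in some settings, and the cause was not tested. With library totals alone the log2 fold change of Cacna1c in CARM1 knockout was -0.17. With 1 library left out it ranged from -0.10 (without CARM1 knockout replicate 1) to 0.26, and in NFIB mutant tumors from -0.42 to 0.36 (without NFIB mutant replicate 3). Cacna1h in CARM1 knockout ranged from -4.94 (without CARM1 knockout replicate 3, where it was called) to 0.11, and Cacna2d1 in NFIB mutant tumors from -0.87 to 0.15. Scn2a in CARM1 knockout ranged from -1.75 to 0.27 (without TKO replicate 3). Scn9a in CARM1 knockout ranged from -7.37 (without CARM1 knockout replicate 3, called) to 3.79. Kcna4 ranged from -1.43 to 9.22 in CARM1 knockout and from -0.089 to 10.52 in NFIB mutant tumors, the highest values without TKO replicate 3, where both remaining TKO libraries were at 0 and the value is no bound.

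Within each assay, libraries of the same number in different genotypes were compared by their deviations from the genotype means. The correlations were -0.30 to 0.12 in RNA-seq and -0.14 to 0.12 in ATAC-seq, so no block shared across genotypes was seen. They cannot show whether a number marks the same mouse in both assays, because the assays were not compared with each other here. With the replicate block, the count of lower members was 13 for the CARM1 knockout and 24 for the NFIB mutant, as without it, and Kcna4 was at 1.64 and Scn9a at -1.94 in CARM1 knockout tumors.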
